A study of Mus musculus with 16 samples.

Results

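The chemokine ligands described here are Ccl2, Ccl7 and Ccl12, Ccl3 and Ccl4, Ccl6 and Ccl9, Cxcl1 and Cxcl2, and Cxcl16. They were taken by gene symbol from the deposited tables, each symbol matched 1 row, and the 10 genes stand among 54532 listed genes. All 10 passed the low-count filter that left 15469 genes for testing. The cells were bone marrow macrophages from wild-type C57BL/6J mice aged 2 to 3 months, grown from tibial marrow with the growth factor CSF-1 (12 ng/ml for 24 h in 15% serum, then 120 ng/ml for 48 h). They were replated on normal culture dishes, called uncoated here, or on dishes precoated with fibronectin at 10 µg/ml, an extracellular matrix protein recognised by integrins. On each surface they received a control IgG or a neutralizing antibody to ITGAV, the αV subunit of several matrix-binding integrins, at 10 µg/ml for 24 h, so that every group carried an antibody. This gave 4 groups of 4 libraries of polyadenylated RNA. The labels do not say that replicates are separate animals or cultures, so each p-value reflects the spread among libraries, and that spread may be technical.

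Chemokines are small secreted proteins that draw leukocytes along a gradient by binding G-protein-coupled receptors. Ccl2, Ccl7 and Ccl12 are ligands of CCR2 and call inflammatory monocytes into tissue, Ccl3 and Ccl4 attract monocytes and T cells, and Ccl6 and Ccl9 are CCR1 ligands that myeloid cells make without stimulation. Cxcl1 and Cxcl2 attract neutrophils through CXCR2. Cxcl16 is made as a membrane-anchored protein, binds CXCR6 and also acts as a scavenger receptor for oxidized lipoprotein. In macrophages several of these genes are known as rapid targets of NF-κB, and their transcripts can be short-lived.

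Total counts per library ranged from 27995035 to 43413650, and a count of 0 allows up to 0.0691 to 0.107 CPM (3 counts over the unadjusted library total), which takes in only the error of counting. The CPM of genes given below are counts scaled by the TMM-adjusted total. The labelled cell type was checked on its markers, and the 12 genes of the macrophage list, such as Adgre1, Csf1r, Cd68 and Lyz2, summed to 30562 to 38044 CPM with none at 0, and 1 of the 12 was lower on fibronectin in each coating comparison. Replicate 3 of fibronectin with anti-ITGAV stood apart from the others, with 3.67% of its counts from mitochondrial genes against 1.30% to 1.60% in the other 15 libraries. Its counts also followed transcript GC content more closely (Spearman's rho across genes of -0.71, against -0.30 to 0.55 in the others). The members' transcripts hold 42.1% to 49.8% GC, where the median of the tested genes is 49.7%. Several values of the members are also given without this library. The marker sums and the counts of other gene lists are given only with it.

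The ligands differed in level by orders of magnitude per unit of transcript length. On the FPKM scale (fragments scaled by gene length and by library size), the mean over all 16 libraries was 692 for Ccl6 and 356 for Ccl9, then 81.0 for Ccl2, 68.8 for Ccl7, 34.4 for Ccl3, 21.5 for Ccl4, 17.2 for Ccl12 and 12.2 for Cxcl16. Cxcl2 at 0.982 and Cxcl1 at 0.238 were the lowest. Within each library Ccl6 lay above Ccl9, Ccl2 above Ccl7 and Ccl3 above Ccl4, 16 of 16 in every case, whereas the FPKM ranges of Ccl12 (5.91 to 46.8) and Cxcl16 (10.7 to 15.2) overlapped. Ccl6 and Ccl9 together held 87.6% of the members' summed FPKM on uncoated dishes with IgG and 77.1% on fibronectin with IgG. The monocyte chemoattractants Ccl2, Ccl7 and Ccl12 held 7.22% and 17.5% of it. The libraries of these groups did not overlap in either share, and under anti-ITGAV the shares were 88.3% against 76.9% and 6.11% against 17.5%.

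On fibronectin under IgG, 4 of the 10 ligands rose and none fell (edgeR's quasi-likelihood test, adjusted p under 0.05 over all genes tested), where 2.37% of all tested genes rose, 1.42% fell and 3.79% passed in either direction. These were Ccl2, Ccl7, Ccl12 and Ccl4. Under anti-ITGAV 5 of 10 rose, the same 4 and Ccl3, and none fell, where 2.84% of all tested genes rose, 2.83% fell and 5.66% passed in either direction. The libraries of the coated and uncoated groups did not overlap for 6 of 10 members under IgG and 7 of 10 under anti-ITGAV, each time with fibronectin higher, against 7.89% and 6.55% of all tested genes. The median log2 change of the members was 0.55 under IgG and 0.49 under anti-ITGAV, and that of all tested genes 0.002 and 0.01. The members were chosen with earlier results of these data known, so these counts and medians are no independent test of the group. In bulk RNA a change in RNA per cell and a change in the number of cells that make it cannot be told apart.

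**Figure D1:**
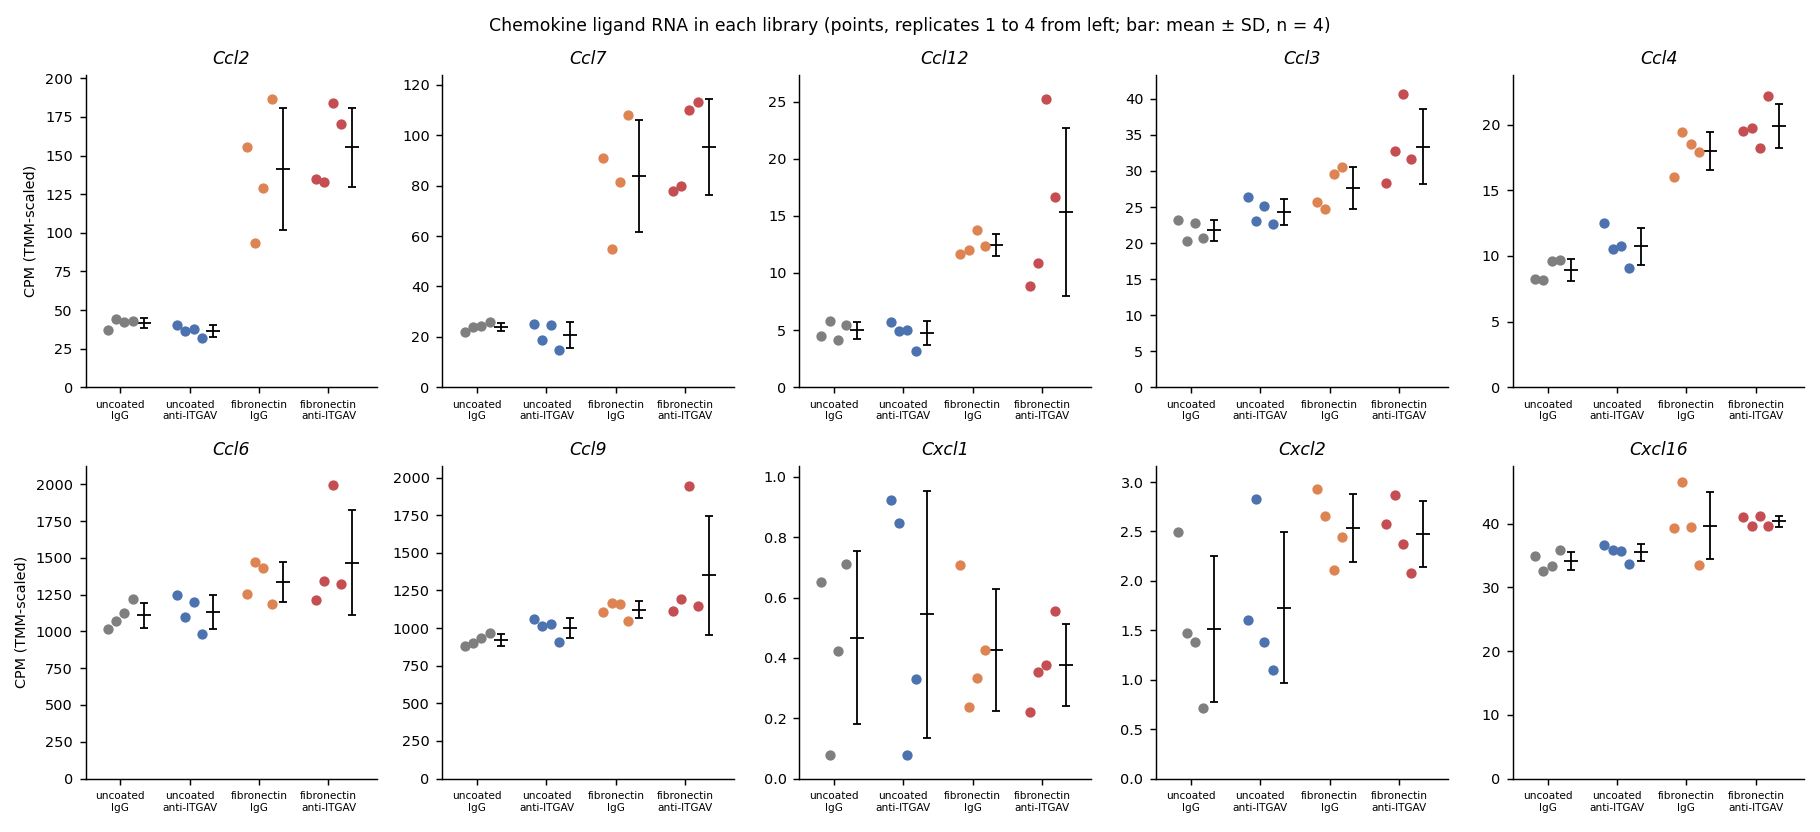
RNA level of each chemokine ligand in CPM (TMM-scaled, linear axis from 0) in the 4 groups, with a point per library in replicate order and a bar for the group mean ± SD (n = 4). Ccl2, Ccl7, Ccl12 and Ccl4 are higher in all 8 fibronectin libraries than in all 8 uncoated libraries, while Cxcl1 overlaps between all groups.

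Ccl2 and Ccl7 were the members with the greatest increase. Ccl2 (ENSMUSG00000035385, chr11:82035571-82037453, GRCm38) had 37.3, 44.1, 42.3 and 42.7 CPM in replicates 1 to 4 on uncoated dishes with IgG and 155, 93.3, 129 and 187 CPM on fibronectin with IgG. Under anti-ITGAV it had 40.5, 36.3, 37.5 and 31.7 CPM on uncoated dishes and 135, 133, 184 and 170.1 CPM on fibronectin. Every fibronectin library thus lay above every uncoated library, and replicate 2 of fibronectin with IgG was the lowest of the coated ones. In that group replicates 2 and 3 lay below replicates 1 and 4. Their counts followed GC content with a rho of 0.55 and 0.4, against -0.29 and -0.25 in replicates 1 and 4. The part of this trend in Ccl2 was not tested. The log2 change on fibronectin was 1.76 ± 0.17 (SE) under IgG, 3.39-fold (edgeR adjusted p = 2.41e-05), and 2.09 ± 0.17 under anti-ITGAV, 4.26-fold (adjusted p = 5.52e-06). By p, Ccl2 ranked 5 and 2 of the 15469 genes in these comparisons.

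Ccl7 (ENSMUSG00000035373, chr11:82045712-82047525), which starts 10.1 kb from the start of Ccl2 on the same strand, had 21.96, 23.9, 24.4 and 25.7 CPM on uncoated dishes with IgG and 91.0, 54.8, 81.4 and 108 CPM on fibronectin with IgG. With anti-ITGAV it had 25.1, 18.6, 24.9 and 14.7 CPM and 77.8, 79.7, 110.2 and 113 CPM. The groups did not overlap, and the library with the lowest Ccl2 among the coated ones was also the lowest for Ccl7. The log2 change was 1.80 ± 0.20 under IgG (adjusted p = 8.91e-05) and 2.19 ± 0.20 under anti-ITGAV (adjusted p = 1.97e-05). Ccl2 and Ccl7 kept close proportions from library to library: the ratio of their FPKM lay between 1.06 and 1.52 over all 16 libraries, although each level ranged 5.84-fold and 7.71-fold.

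Ccl12 (ENSMUSG00000035352, chr11:82101845-82103400) stood lower than both. It had 4.51, 5.81, 4.17 and 5.44 CPM on uncoated dishes with IgG and 11.6, 12.0, 13.8 and 12.3 CPM on fibronectin with IgG, a spread on fibronectin of 12.5 ± 0.941 (SD, n = 4). With anti-ITGAV it had 5.69, 4.93, 5.02 and 3.21 CPM and 8.83, 10.8, 25.2 and 16.6 CPM, and the highest of these was replicate 3, the library that stood apart. The log2 change was 1.32 ± 0.26 under IgG (edgeR adjusted p = 0.00785) and 1.71 ± 0.26 under anti-ITGAV (adjusted p = 0.00138), and without that replicate the change under anti-ITGAV was 1.36 (adjusted p = 7.11e-04). Of the monocyte chemoattractants, only Ccl12 has a promoter in the RefSeq table used here. The 150 bases before its start are shown because this gene rose, with the capitals marking a GAGGAA motif of the ETS family 130 bases before the start and a TATAAA motif 31 bases before it.
Ccl12 (chr11:82101695-82101844, plus strand, GRCm38.p6, RefSeq): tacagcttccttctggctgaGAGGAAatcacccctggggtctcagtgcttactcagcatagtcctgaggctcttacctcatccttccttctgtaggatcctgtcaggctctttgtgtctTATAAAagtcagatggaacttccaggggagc
Of 32851 promoters of the same length, 14.5% held GAGGAA and 7.57% held TATAAA on either strand. A match is a description and not a binding site, and the window held no match to TGANTCA, the AP-1 motif, or to the κB consensus.

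Ccl4 rose under both antibodies, and Ccl3 passed the test under anti-ITGAV. Ccl4 (ENSMUSG00000018930, chr11:83662584-83664683) had 8.25, 8.20, 9.60 and 9.66 CPM on uncoated dishes with IgG and 16.04, 19.4, 18.5 and 17.9 CPM on fibronectin with IgG. With anti-ITGAV it had 12.5, 10.5, 10.8 and 9.10 CPM and 19.5, 19.7, 18.2 and 22.2 CPM. The groups did not overlap under either antibody and the coated libraries were tightly spread, 17.97 ± 1.43 and 19.9 ± 1.67 CPM (SD, n = 4). The log2 change was 1.01 ± 0.12 under IgG, 2.01-fold (edgeR adjusted p = 1.17e-04), and 0.89 ± 0.12 under anti-ITGAV (adjusted p = 3.74e-04).

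Ccl3 (ENSMUSG00000000982, chr11:83647844-83649355), which lies beside Ccl4 on the opposite strand, had 23.2, 20.3, 22.8 and 20.7 CPM on uncoated dishes with IgG and 25.7, 24.7, 29.6 and 30.5 CPM on fibronectin with IgG. With anti-ITGAV it had 26.4, 23.0, 25.2 and 22.7 CPM and 28.4, 32.8, 40.7 and 31.7 CPM, the highest again in the replicate that stood apart. The groups did not overlap, but the gap between them was small beside that of Ccl4. The log2 change was 0.35 ± 0.11 under IgG, which missed the threshold (edgeR adjusted p = 0.115, 95% interval 0.10 to 0.59), and 0.46 ± 0.11 under anti-ITGAV (adjusted p = 0.0255). Without the replicate that stood apart the values were 0.35 (adjusted p = 0.0216) and 0.35 (adjusted p = 0.0384). The call under anti-ITGAV was lost without replicate 2, 3 or 4 of uncoated dishes with anti-ITGAV (adjusted p = 0.0891, 0.0586 and 0.0613).

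Ccl6 and Ccl9, the most abundant ligands, did not pass the test in either coating comparison. Ccl6 (ENSMUSG00000018927, chr11:83587882-83593087) had 1016, 1073, 1129 and 1218 CPM on uncoated dishes with IgG and 1256, 1468, 1429 and 1189 CPM on fibronectin with IgG, and these groups overlapped. Under anti-ITGAV it ranged from 983 to 1244 CPM on uncoated dishes and from 1210.2 to 1993 CPM on fibronectin, which also overlapped. The log2 difference was 0.27 ± 0.13 (edgeR adjusted p = 0.36, 95% interval -0.01 to 0.55) under IgG and 0.38 ± 0.13 (adjusted p = 0.113, interval 0.09 to 0.66) under anti-ITGAV. Ccl9 (ENSMUSG00000019122, chr11:83572919-83578636) had 879, 898, 936 and 968 CPM on uncoated dishes and 1106, 1167, 1163 and 1046 CPM on fibronectin with IgG, groups that did not overlap. Under anti-ITGAV it ranged from 909 to 1063 CPM on uncoated dishes and from 1113 to 1945 CPM on fibronectin. Its log2 difference was 0.28 ± 0.14 (adjusted p = 0.338, interval -0.0045 to 0.57) under IgG and 0.43 ± 0.14 (adjusted p = 0.0773, interval 0.14 to 0.72) under anti-ITGAV. On fibronectin with anti-ITGAV, replicate 3 had 1993 CPM of Ccl6 and 1945 CPM of Ccl9, the highest of all 16 libraries for both. Without it the differences under anti-ITGAV were 0.19 for Ccl6 (adjusted p = 0.275) and 0.20 for Ccl9 (adjusted p = 0.0979), and Ccl9 passed the test under IgG (0.28, adjusted p = 0.00797).

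The neutrophil attractants had the lowest counts of the members and did not pass the test. Cxcl1 (ENSMUSG00000029380, chr5:90891241-90893115) had 3 to 31 counts per library, or 0.653, 0.0789, 0.424 and 0.711 CPM on uncoated dishes and 0.708, 0.239, 0.333 and 0.427 CPM on fibronectin with IgG. Under anti-ITGAV it ranged from 0.0768 to 0.923 and from 0.221 to 0.555 CPM, so that all groups overlapped. Its log2 difference was -0.14 ± 0.65 under IgG (edgeR adjusted p = 0.967, 95% interval -1.52 to 1.23) and -0.52 ± 0.65 under anti-ITGAV (adjusted p = 0.658, interval -1.90 to 0.85). The interval under IgG takes in log2 values beyond 1 in both directions, and within a group the libraries differed widely. Cxcl2 (ENSMUSG00000058427, chr5:90903871-90905938) had 2.49, 1.47, 1.38 and 0.711 CPM on uncoated dishes with IgG and 2.93, 2.65, 2.11 and 2.44 CPM on fibronectin with IgG. Replicate 1 of the uncoated group reached the coated range, so the groups overlapped, as they did under anti-ITGAV (1.097 to 2.83 and 2.08 to 2.87 CPM). The log2 difference was 0.75 ± 0.32 (adjusted p = 0.264, interval 0.07 to 1.43) under IgG and 0.52 ± 0.32 (adjusted p = 0.343, interval -0.15 to 1.20) under anti-ITGAV.

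The promoters of Cxcl1 and Cxcl2 are shown because each held a match to the κB consensus, the motif bound by NF-κB. Ccl2, Ccl7 and Ccl4, which rose, have no promoter in the RefSeq table used here. A part of the motif in any change was not tested. The capitals mark the κB match, which begins 71 bases before the RefSeq start of Cxcl1 and 97 bases before that of Cxcl2. It overlaps a match on the other strand that begins 1 base later. These RefSeq starts differ from the gene starts given above (90891241 for Cxcl1 and 90903871 for Cxcl2), and both windows run past the latter.
Cxcl1 (chr5:90891095-90891244, plus strand, GRCm38.p6, RefSeq): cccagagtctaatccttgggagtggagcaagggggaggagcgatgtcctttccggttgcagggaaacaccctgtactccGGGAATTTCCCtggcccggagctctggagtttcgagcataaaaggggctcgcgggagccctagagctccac
Cxcl2 (chr5:90903749-90903898, plus strand, GRCm38.p6, RefSeq): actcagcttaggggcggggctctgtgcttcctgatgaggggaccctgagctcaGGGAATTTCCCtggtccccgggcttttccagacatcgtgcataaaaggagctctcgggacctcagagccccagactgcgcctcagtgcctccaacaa
Of 32851 promoters 4.6% held the κB consensus in these 150 bases on either strand. Among the 6 members with a promoter in the table, Ccl9 also held it, beginning 35 bases before the start on the minus strand, with TGANTCA (4.24% of promoters) beginning 53 bases before and TATAAA 92 bases before, with an overlapping match on the minus strand. The window of Ccl3 held GAGGAA alone, 33 bases before its RefSeq start on the minus strand, and that of Ccl6 none of the 4 motifs. The RefSeq start of Ccl3 also differs from the gene coordinates given above.

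Cxcl16 (ENSMUSG00000018920, chr11:70453983-70459984) had 34.9, 32.5, 33.4 and 35.8 CPM on uncoated dishes with IgG and 39.4, 46.5, 39.4 and 33.5 CPM on fibronectin with IgG. With anti-ITGAV it had 36.7, 35.9, 35.8 and 33.6 CPM and 41.1, 39.7, 41.2 and 39.6 CPM, and only these latter groups did not overlap. The log2 difference was 0.22 ± 0.09 (edgeR adjusted p = 0.256, 95% interval 0.02 to 0.41) under IgG and 0.19 ± 0.09 (adjusted p = 0.243, interval -0.01 to 0.38) under anti-ITGAV. It was the most even member, with a 1.43-fold range of FPKM over all 16 libraries. Its exons share 552 bases with Zmynd15 on the opposite strand, a gene with a mean of 2.02 CPM. The strand setting of the counting is not given in the sources used here, so reads of these genes may not be separable.

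**Figure D2:**
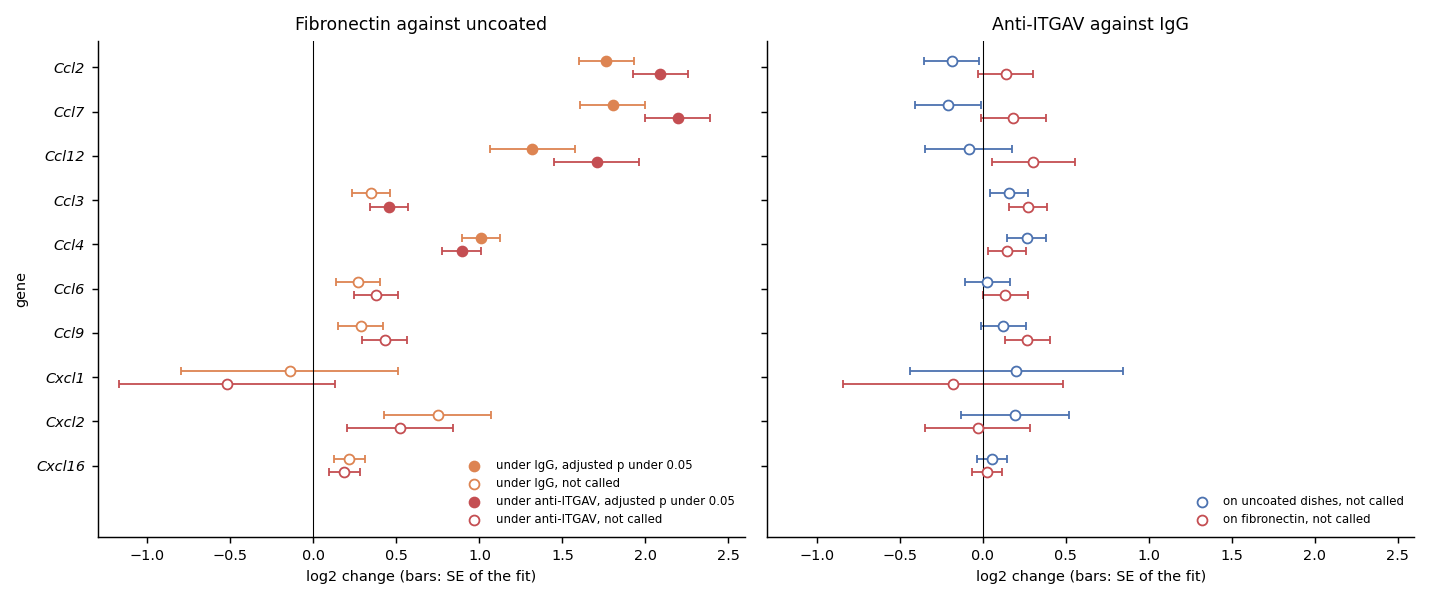
Log2 change of each ligand (x axis, bars ± SE of the edgeR fit) for fibronectin against uncoated dishes under each antibody (left) and for anti-ITGAV against IgG on each surface (right), with filled points for adjusted p under 0.05. Ccl2 and Ccl7 lie between 1.76 and 2.19 on the left, Ccl4 at 1.01 and 0.89 and Ccl6, Ccl9 and Cxcl16 below 0.5, and no point is filled on the right.

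The 3′ untranslated regions of the same genes were read for TATTTAT, the core of the AU-rich elements through which the Zfp36 proteins speed mRNA decay. The motif occurred 6 times in Cxcl1 and 7 times in Cxcl2, the lowest members, 1 time each in Ccl12, Ccl3 and Ccl4, and not in Ccl2, Ccl7, Ccl6, Ccl9 or Cxcl16. These counts include overlapping copies. The site nearest to the stop codon is shown for each gene that has one (GRCm38, motif in capitals with 10 bases on each side), because the number of copies sets Cxcl1 and Cxcl2 apart from the other members.
Cxcl1 (chr5:90892600-90892626, plus strand): ttgagggtccTATTTATttatgtattt
Cxcl2 (chr5:90905317-90905343, plus strand): agagttcactTATTTATttatctatgt
Ccl12 (chr11:82103278-82103304, plus strand): ggcagtgtgaTATTTATtatgatatct
Ccl3 (chr11:83648004-83648030, minus strand): tatttgtgacTATTTATtctgaaagac
Ccl4 (chr11:83664543-83664569, plus strand): ttatttctatTATTTATgttttagtta
In the annotation 26.1% of 20737 3′ untranslated regions held TATTTAT anywhere, in any number of copies. Of the genes that rose on fibronectin, Ccl12 and Ccl4 have 1 copy and Ccl2 and Ccl7 have none. A part of the motif in the level or the change of any member was not tested. Absence of the letters says nothing of other decay elements.

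Ratios between ligands within a library show the unequal change directly. They are given as descriptions of FPKM with no test. Ccl2 to Ccl3 was 1.29 ± 0.167 (SD, n = 4) on uncoated dishes and 3.42 ± 0.795 on fibronectin with IgG, and 1.01 ± 0.0512 and 3.14 ± 0.368 with anti-ITGAV, with no overlap in either case. Ccl2 to Ccl4 was 2.71 ± 0.269 and 4.63 ± 1.499 with IgG, where replicate 2 on fibronectin (2.79) lay among the uncoated libraries (2.56 to 3.12). With anti-ITGAV it was 1.98 ± 0.0677 and 4.55 ± 0.904, with no overlap. The shift of Ccl2 against Ccl4 thus separated the groups under anti-ITGAV and left 1 library in the uncoated range under IgG. The part of that library's GC trend (rho 0.55) in its ratio was not tested.

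Ccl3 and Ccl4 also shifted against each other under IgG. Their ratio was 2.11 ± 0.240 on uncoated dishes and 1.33 ± 0.164 on fibronectin with IgG, with no overlap, and 1.97 ± 0.145 and 1.46 ± 0.324 with anti-ITGAV, where replicate 3 on fibronectin (1.93) reached the uncoated range. Ccl2 to Ccl6 was 0.0593 ± 0.00401 and 0.172 ± 0.0641 with IgG and 0.0510 ± 0.00122 and 0.170 ± 0.0253 with anti-ITGAV, with no overlap. By contrast Ccl6 to Ccl9 stayed between 1.74 and 2.14 over all 16 libraries. Ccl2 to Cxcl2 was 61.6 ± 34.3 and 103 ± 31.4 with IgG, groups that overlapped, and 42.7 ± 13.2 and 117 ± 32.3 with anti-ITGAV, groups that did not.

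**Figure D3:**
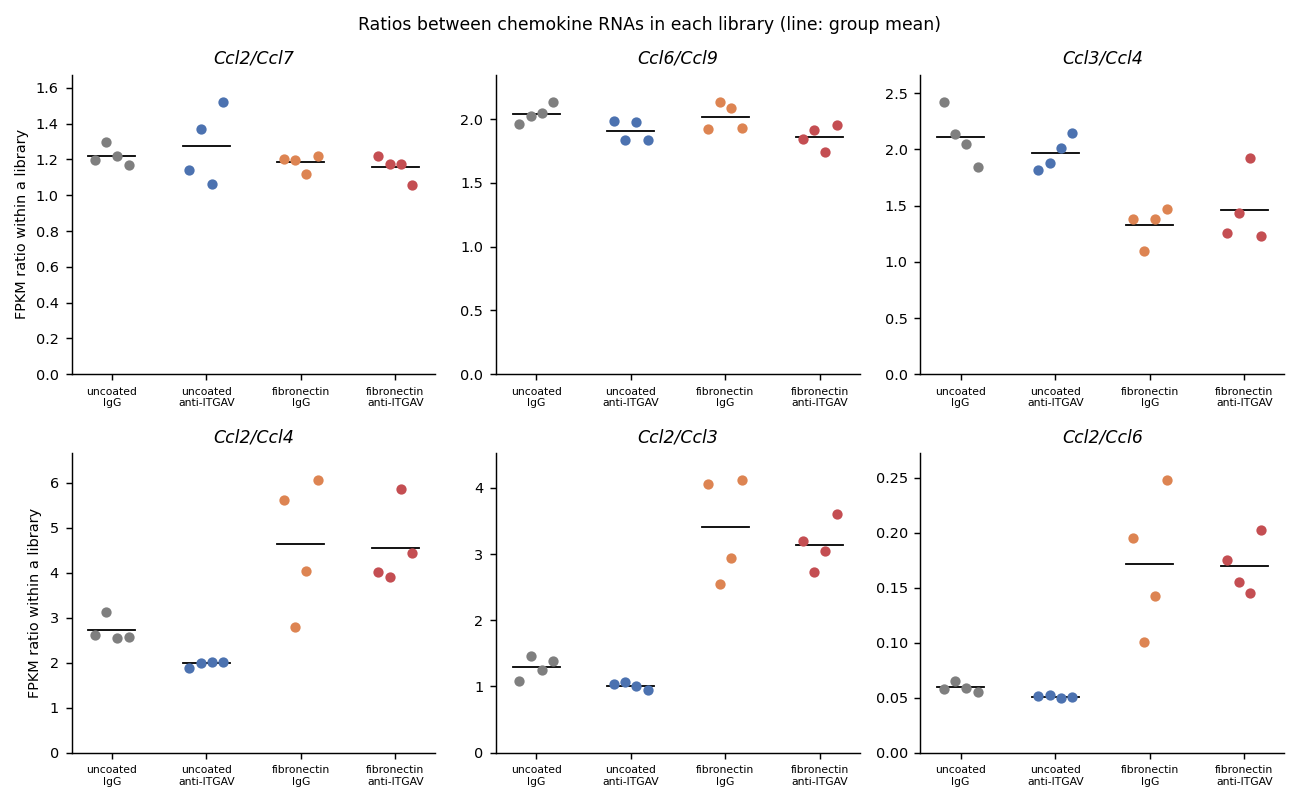
Ratio of FPKM between pairs of ligands in each library (y axis, linear from 0), with a point per library and a line at the group mean. Ccl2/Ccl7 and Ccl6/Ccl9 overlap between coated and uncoated libraries under each antibody, while Ccl2/Ccl3 and Ccl2/Ccl6 separate the coated from the uncoated libraries and Ccl3/Ccl4 has a lower mean on fibronectin, with 1 coated library in the uncoated range under anti-ITGAV.

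No ligand passed the test for anti-ITGAV against IgG on either surface, 0 of 10 in each. On uncoated dishes the smallest adjusted p of a member was 0.988 (edgeR) and on fibronectin 0.721, where 0.0129% of all tested genes passed in each comparison, and no member's groups were free of overlap, against 3.15% and 2.42% of all tested genes. With DESeq2 no member passed either. Before adjustment, 1 member in each comparison had a p under the threshold in edgeR's test: Ccl4 on uncoated dishes (log2 difference 0.26 ± 0.12, unadjusted p = 0.0375, adjusted p = 0.988) and Ccl3 on fibronectin (0.27 ± 0.11, unadjusted p = 0.0289, adjusted p = 0.721), where 470 and 720 of the 15469 tested genes did. For Ccl2 the log2 difference was -0.19 ± 0.17 (95% interval -0.54 to 0.16) on uncoated dishes and 0.14 ± 0.16 (-0.21 to 0.48) on fibronectin. For Ccl7 it was -0.21 ± 0.20 (-0.63 to 0.21) and 0.18 ± 0.19 (-0.23 to 0.60). For Ccl12 it was -0.08 ± 0.26 (-0.64 to 0.47) and 0.30 ± 0.25 (-0.23 to 0.83), and the value on fibronectin became -0.05 without the replicate that stood apart.

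The difference between the fibronectin changes under the 2 antibodies, the interaction, was also not called for any member (0 of 10, smallest edgeR adjusted p 0.646, background 0%). No gene of the 15469 was called with edgeR, 614 had an unadjusted p under 0.05 (none of them a member), and DESeq2 called 1 gene. The monocyte chemoattractants had interaction values of 0.33 ± 0.23 for Ccl2, 0.39 ± 0.28 for Ccl7 and 0.39 ± 0.36 for Ccl12, each with a 95% interval that includes 0. Without the replicate that stood apart these values were 0.24, 0.32 and 0.04, with voom quality weights 0.10, 0.15 and 0.08, and with the GC trend of each library taken out 0.02, 0.05 and -0.09. Ccl6 had an interaction of 0.11 ± 0.19 and Ccl9 of 0.14 ± 0.19, or -0.07 and -0.08 without that replicate. For Ccl4 the value was -0.12 ± 0.16 and for Ccl3 0.11 ± 0.16, or -0.08 and 0.0019 without it. The call of Ccl3 under anti-ITGAV and not under IgG is therefore no shown difference between the antibodies.

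Some markers of other marrow cells were lower on fibronectin. The 13 neutrophil markers, none of them at 0 in all libraries, summed to 501 to 547 CPM on uncoated dishes and 384 to 479 CPM on fibronectin with IgG, and 403 to 450.3 and 269.8 to 432 CPM with anti-ITGAV. Of these, 1 of 13 fell on fibronectin under IgG and 6 of 13 under anti-ITGAV. For this and all marker lists, 1.42% and 2.83% of all tested genes fell in these comparisons, and 2.37% and 2.84% rose. On fibronectin 2 of 13 were lower with anti-ITGAV than with IgG, and these were the only 2 of the 15469 tested genes called there. The 8 basophil and mast cell markers summed to 30.2 to 37.1 CPM on uncoated dishes and 16.8 to 21.1 CPM on fibronectin with IgG, and 22.7 to 29.6 and 10.6 to 14.6 CPM with anti-ITGAV, with 2 of 8 lower in each coating comparison. The basophil and mast cell sums did not overlap between coated and uncoated libraries under either antibody. The neutrophil sums overlapped under anti-ITGAV, with group means of 421 CPM on uncoated dishes and 323 CPM on fibronectin. The 9 fibroblast markers summed to 13.5 to 16.2 CPM on uncoated dishes and 8.17 to 9.84 CPM on fibronectin with IgG, and 11.3 to 14.5 and 6.21 to 9.22 CPM with anti-ITGAV, with 2 and 1 lower and Lum at 0 in all libraries, and the 7 B lymphocyte markers to 60.8 to 78.0 CPM on uncoated dishes and 31.0 to 44.9 CPM on fibronectin with IgG, and 69.3 to 79.8 and 29.96 to 36.8 CPM with anti-ITGAV, with 1 and 2 lower.

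The 5 endothelial markers, which include Kdr, summed to 24.4 to 25.8 CPM on uncoated dishes and 32.3 to 34.8 CPM on fibronectin with IgG, and 25.96 to 31.3 and 22.2 to 35.9 CPM with anti-ITGAV, with Kdr called higher in each comparison. These sums did not overlap under IgG and overlapped under anti-ITGAV. The 7 monocyte markers summed to 981 to 1291 CPM on uncoated dishes and 721 to 1112 CPM on fibronectin with IgG, and 800.0 to 1275 and 912 to 1037 CPM with anti-ITGAV, with 0 and 1 lower. Dendritic cell markers summed to 1.73 to 3.61 CPM, T and NK markers to 0.0305 to 0.548 CPM with Trbc2 at 0, and megakaryocyte and erythroid markers to 6.52 to 11.8 CPM, with no marker of these called. The part of these cells in the chemokine results was not tested.

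Of 27 other chemokine ligands 14 could be tested and 6 had no count. In each coating comparison 1 rose, and 1 fell under IgG and 2 under anti-ITGAV. Beside this and the lists below, 2.37% of all tested genes rose and 1.42% fell under IgG, and 2.84% rose and 2.83% fell under anti-ITGAV. Cxcl14, a ligand of epithelia and macrophages, rose by 0.64 ± 0.13 (log2, SE, edgeR adjusted p = 0.00895) under IgG and 0.68 ± 0.13 under anti-ITGAV. Pf4, the platelet factor that macrophages also make, fell in both, by a log2 change of -0.37 ± 0.09 (adjusted p = 0.0246) and -0.49 ± 0.09 (adjusted p = 0.00361). Ccl24, an eosinophil attractant, was at -0.44 ± 0.17 (adjusted p = 0.195) and fell under anti-ITGAV, -0.93 ± 0.17 (adjusted p = 0.00412). Cxcl9, an interferon-induced ligand, did not pass (1.41 ± 0.65, adjusted p = 0.301). Over the 14 tested ligands the median log2 change was -0.10 under IgG and 0.11 under anti-ITGAV.

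Among 23 chemokine receptors 14 were tested, and 1 rose and 1 fell in each coating comparison, with a median log2 change of 0.03 and 0.07. Cx3cr1, the fractalkine receptor, rose by 0.84 ± 0.15 (log2, edgeR adjusted p = 0.00324) under IgG, and Cxcr4, the receptor of Cxcl12, changed by -0.62 ± 0.15 (adjusted p = 0.0271). Neither Cxcr6, the receptor of Cxcl16 (1.51 ± 0.59, adjusted p = 0.187), nor Cxcr2, the receptor of Cxcl1 and Cxcl2 (-0.43 ± 0.19, adjusted p = 0.285), passed the test.

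Of 22 NF-κB and cytokine genes 21 were tested, and 3 rose and 1 fell under IgG, against 3 and 2 under anti-ITGAV, with a median log2 change of -0.06 and -0.10. Tnf, an inflammatory cytokine, rose by 1.26 ± 0.16 (log2, edgeR adjusted p = 2.56e-04) and 0.81 ± 0.16. Tnfaip3, an NF-κB feedback inhibitor, rose by 0.62 ± 0.11 and 0.61 ± 0.11, and Il1rn, the interleukin receptor antagonist, by 0.87 ± 0.17 and 0.98 ± 0.17. Birc3, an inhibitor of apoptosis and a known NF-κB target, had -0.42 ± 0.11 (adjusted p = 0.0421) and -0.50 ± 0.11. Of 19 AP-1 and ERK response genes 6 rose and 0 fell under IgG, and 4 rose and 1 fell under anti-ITGAV, with a median of 0.40 and 0.04. The interaction was called for 0 of the 19, so the 2 medians are no shown difference between the antibodies. Some of these genes were widely spread on fibronectin with anti-ITGAV. Junb, named after its values were seen, had 15.3 to 70.8 CPM there and 74.2 to 83.9 CPM on uncoated dishes with anti-ITGAV. Myc rose by 1.46 ± 0.20 (adjusted p = 5.21e-04) and 1.49 ± 0.20, the ERK phosphatases Dusp4 by 1.33 ± 0.18 and 1.20 ± 0.18 and Dusp6 by 0.86 ± 0.12 and 0.72 ± 0.12, and the AP-1 subunit Fos by 0.66 ± 0.11 and 0.47 ± 0.11. Fos was also 1 of the 2 genes called for anti-ITGAV against IgG on uncoated dishes (0.74 ± 0.11, edgeR adjusted p = 0.0264). On fibronectin its antibody difference did not pass (0.55 ± 0.11, adjusted p = 0.176).

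Of the regulators of chemokine mRNA decay, 0 of 8 passed the test under IgG and 1 fell under anti-ITGAV, Zfp36, which binds the motif shown above and promotes decay. Its log2 change was -0.26 ± 0.10 (edgeR adjusted p = 0.185) and -0.39 ± 0.10 (adjusted p = 0.029). Elavl1, which stabilizes such transcripts, had 0.15 ± 0.08 and 0.26 ± 0.08, Zfp36l1 -0.35 ± 0.19 and -0.52 ± 0.19, and Zfp36l2 -0.12 ± 0.07 and -0.18 ± 0.07, none of which passed, and the median of the list was -0.15 and -0.12.

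Of the members 8 lie on chromosome 11 and Cxcl1 and Cxcl2 on chromosome 5. In the region from 200 kb before Ccl2 to 200 kb beyond Ccl4, 9 chemokine genes were tested and 4 rose under IgG and 5 under anti-ITGAV, while of 31 other tested genes 1 rose under IgG (Nle1, a ribosome assembly factor, log2 change 0.74 ± 0.19) and 1 fell under anti-ITGAV (Rffl, a ubiquitin ligase, -0.47 ± 0.11). The chemokine genes that rose here were all members given above, which were chosen with earlier results of these data known. Their count is therefore no separate result for the region, and the tested non-members Ccl8 and Ccl5 did not pass. Tested chemokine genes of the region that missed the threshold included neighbours of those that rose. Ccl8, also a monocyte attractant, which starts 79.6 kb from Ccl2, had a log2 difference of -0.06 ± 0.35 (edgeR adjusted p = 0.975) under IgG and 0.01 ± 0.34 (adjusted p = 0.986) under anti-ITGAV at a mean of 1.502 CPM. Ccl11, between Ccl7 and Ccl12, had 22 counts in all libraries together and was not tested. Ccl5, known for attracting T cells, had 0.39 ± 0.24 (adjusted p = 0.499) and -0.01 ± 0.23 (adjusted p = 0.987). Ccl8, Ccl5, Ccl11, Nle1 and Rffl are named for their place in this region and were chosen after their values were seen.

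**Figure D4:**
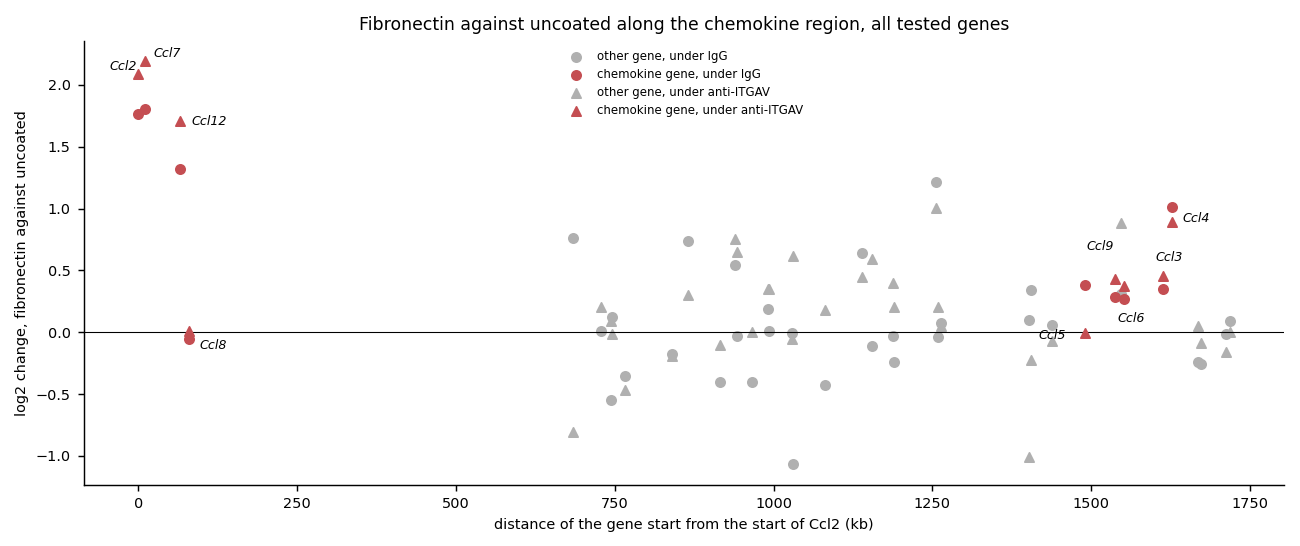
Log2 change on fibronectin (y axis) of every tested gene in the chromosome 11 region against the distance of its start from that of Ccl2 in kb (x axis), red for chemokine genes and grey for others, circles under IgG and triangles under anti-ITGAV. Ccl2, Ccl7 and Ccl12 lie between 1.32 and 2.19, while Ccl8 beside them lies at -0.06 and 0.01.

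The genes whose pattern over the 16 libraries was most like a ligand's were found by the root mean square difference of log2 CPM, each gene centred on its mean, among 10898 protein-coding genes. For Ccl2 these were Ccl7 (0.125), Myc (0.345), the urokinase gene Plau (0.347) and Ccl12 (0.373), where the median gene differed by 1.01. For Ccl3 they were Eaf1 (0.106), Tpm4 (0.113), Klhl2 (0.116) and Sgk1 (0.117), and Ccl4 was not among them. For Ccl6 they were Snu13, Esd, Rer1 and Anp32b (0.0614 to 0.0700), and for Cxcl16 Usp4, Ppp4r1, Mcub and Sra1 (0.0688 to 0.0718). For Cxcl2 they were Acod1, which makes itaconate (0.305), Tnfaip3 (0.376), Myo19 (0.383) and Plpp3 (0.384). A gene that varies little over the libraries, such as Cxcl16, has many near genes by this measure, so its values cannot be set against those of Ccl2.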

How the data were processed

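RNA-seq was deposited as raw read counts per gene and as FPKM (fragments scaled by gene length and library size), both made by the authors. Per the submitters' processing notes HISAT2, featureCounts and StringTie were used with mm10 or GRCm38.p6. Their versions, the strand setting and the handling of multi-mapping reads were not given in the sources used here. Deposited values of FPKM equal the count over gene length and a library constant of 0.989 to 1.04 times the total count.

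Counts of all 16 libraries were fitted together in edgeR 4.0.16 (R 4.3.3) with TMM factors, filterByExpr (minimum count 10, or 0.357 CPM at the lowest total), 1 mean per group and the robust quasi-likelihood test, with Benjamini-Hochberg adjustment over 15469 genes and a threshold of 0.05. The script was tested on simulated data. Standard errors are from the fit and 95% intervals use the fit's total (residual and prior) degrees of freedom. FPKM was used for levels between genes and for ratios. DESeq2 1.42.0, limma 3.58.1, other scalings, filters, FPKM scales, GC content and leaving out each library were the alternatives. Total counts of 27995035 to 43413650 set the counting precision.

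The members and the lists were chosen with earlier results of these data known. Named are the 10 members, up to 4 genes of each context list with the smallest p under IgG, the 4 protein-coding genes most like each of 5 members (mean of at least 1 CPM, prior count 2), and genes chosen after their values were seen (Kdr, Zmynd15 and those named as such). Promoters of 6 of 10 members were matched in the RefSeq table (GRCm38.p6).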

Additional observations from a re-analysis of the deposited data

Results flagged for a closer look

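On fibronectin with anti-ITGAV, Ccl9 had 1945 CPM in replicate 3 and 1113, 1193 and 1149 CPM in replicates 1, 2 and 4, so that 1 library lay far from the other three. This was 1 of 40 groups of 4 libraries examined (10 ligands in 4 groups), and chance alone flags about 1 in 20. The same library had 3.67% of its counts from mitochondrial genes against 1.30% to 1.60% in the others. Its part in the value was not tested.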

How the results depend on the processing

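Ccl2, Ccl7, Ccl12 and Ccl4 passed the test in both coating comparisons under all 28 alternatives, with a highest adjusted p of 0.0403 (Ccl12 under IgG). No antibody or interaction value of a ligand passed in edgeR's fit or under any of these alternatives. Under IgG, members called numbered 7 with voom quality weights and 4 to 6 with 1 library left out. Under anti-ITGAV they numbered 6 with voom weights, 6 with DESeq2 and 4 to 5 with 1 library left out. Ccl3 under anti-ITGAV lost its call with upper-quartile factors (adjusted p = 0.0556), log2(FPKM + 1) without a filter (0.0570) and 8 libraries only (0.120). Ligands that missed the threshold in edgeR's fit passed it elsewhere: under IgG Ccl3 with voom weights (adjusted p = 0.00343) and the GC offset (0.0113), Ccl6 with voom weights (0.0312) and Ccl9 with voom weights (0.00184) and 8 libraries only (0.0398), and under anti-ITGAV Ccl9 with DESeq2 (0.0366) and voom weights (0.0225). Most alternatives did not call them. Under IgG, Ccl3 passed in 3 of 28, Ccl6 in 1 and Ccl9 in 3, counting those with 1 library left out. Under anti-ITGAV, Ccl9 passed in 2 of 28, and its log2 difference ran from 0.10 to 0.51.

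Genes called under IgG (586) numbered 1059 with DESeq2, 2481 with voom weights, 309 with log2(FPKM + 1) without a filter, 1810 with a GC offset (chosen after seeing the data) and 253 to 1325 with 1 library left out. The count was 253, 273 and 282 without replicate 1, 2 or 3 of uncoated with IgG, 279 and 320 without replicate 3 or 4 of fibronectin with IgG, and 1325 without replicate 3 of fibronectin with anti-ITGAV. Under anti-ITGAV (876) they numbered 1601, 2173, 510, 2062 and 428 to 1037, and 251 from 8 libraries only. The count was 530, 428 and 454 without replicate 1, 2 or 3 of uncoated with anti-ITGAV and 578 without replicate 4 of fibronectin with anti-ITGAV. For the antibody on uncoated dishes (2 genes) they numbered 28, 109, 1, 8 and 0 to 2. On fibronectin (2 genes) they numbered 19, 6, 4, 10 and 1 to 5, with 4 without a count filter and 0 from 8 libraries only. For the interaction (0 genes) DESeq2 called 1.

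With the replicate number as a block, members called stayed at 4 and 5, and genes called were 360 under IgG and 0 for the antibody on uncoated dishes. Same-numbered libraries did not deviate together more often than others: 7 of 24 pairs had a correlation over 0.1 (-0.65 to 0.59), against 33 of 72 pairs with other numbers. The libraries also differ in GC trend (rho -0.71 to 0.55), whose part in these correlations was not tested. The check therefore cannot tell whether equal numbers share an animal or culture.

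Values that changed sign were small or imprecise, and the cause was not tested. With voom weights, Cxcl1 was 1.09 under IgG and 0.27 under anti-ITGAV, the antibody difference on fibronectin was -0.098 for Ccl2, -0.026 for Ccl7 and -0.0012 for Ccl12, and the interaction was -0.0047 for Ccl3, -0.014 for Ccl6, -0.064 for Ccl9 and 0.0074 for Cxcl16. With the GC offset the antibody difference was 0.14 for Ccl12 on uncoated dishes and -0.025 for Ccl6 on fibronectin, and the interaction -0.094 for Ccl12, -0.044 for Ccl3, -0.15 for Ccl6, -0.32 for Ccl9 and 0.0060 for Cxcl16. With 1 library left out, Cxcl1 under IgG ran from -0.52 to 0.15. The antibody difference on uncoated dishes ran from -0.19 to 0.062 for Ccl12, -0.022 to 0.089 for Ccl6, -0.19 to 0.57 for Cxcl1 and -0.14 to 0.55 for Cxcl2. On fibronectin it ran from -0.017 to 0.31 for Ccl2, -0.046 to 0.51 for Ccl12, -0.047 to 0.23 for Ccl6, -0.40 to 0.17 for Cxcl1, -0.11 to 0.047 for Cxcl2 and -0.050 to 0.11 for Cxcl16. The interaction ran from -0.075 to 0.21 for Ccl6, -0.084 to 0.25 for Ccl9, -0.75 to 0.0069 for Cxcl1, -0.58 to 0.11 for Cxcl2 and -0.092 to 0.055 for Cxcl16. Cxcl1 had 3 to 31 counts per library, the fewest of the members.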
